A study of Mus musculus with 2 samples.

Results

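The 9 genes described here are enzymes and a transporter that build the lipid barrier of the epidermis, namely Elovl4, Cers3, Cyp4f39, Pnpla1, Abca12, Alox12b, Aloxe3, Sdr9c7 and Tgm1. They were chosen by gene symbol from the 24346 symbols of the FPKM values, and each of the 9 was found. The data are bulk mRNA sequencing values of dorsal skin wounds of 1-day-old C57BL/6J pups, harvested 24 h after injury, from WT mice and from littermates without PU.1, with 1 library per genotype. PU.1, the product of Spi1, is a factor that blood cell precursors need to mature, and mice without it are described as having no neutrophils, no macrophages, no mast cells and no T cells. The labels give C57BL/6J for both libraries and the same wound tissue, and no treatment separates them. The study compared the genotypes to find genes that depend on the inflammatory response. The number of pups per library is not stated in the methods or labels. The methods describe incisional wounds and the design text excisional ones.

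The cornified layer of the skin keeps water in by means of lipid sheets between dead keratinocytes. Their characteristic lipids are acylceramides, which carry a fatty acid of exceptional length whose far end is hydroxylated and joined to linoleic acid. Keratinocytes of the granular layer make acylceramides in the endoplasmic reticulum, load them into lamellar bodies and release them. Lipoxygenases then oxidize the linoleic acid, and the lipid is attached to a crosslinked protein envelope. Loss of the human counterparts of these genes is a known cause of congenital ichthyosis, a scaling disorder of the skin.

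There is 1 library per genotype, so no ratio has a replicate check, and neither a p-value nor the spread among pups was available. FPKM values are scaled for transcript length and library depth, so that levels of different genes can be compared. The depth was estimated at about 13800000 fragments for WT and 15800000 for PU.1−/− from whole-read steps in the low values. Each ratio is followed by its 95% interval, exact binomial after Clopper and Pearson, on estimated reads. They cover counting error only, and PCR copies are not independent molecules. Spi1 was at 35.4 FPKM in WT skin against 1.45 FPKM in PU.1−/− skin, a ratio of 0.0412 (interval 0.0293 to 0.0558). The libraries also differed in Xist, at 0 FPKM in WT against 9.48 FPKM in PU.1−/−, and the Y-linked Ddx3y, Eif2s3y, Kdm5d and Uty were at 2.16 to 38.5 FPKM in WT and listed at 0 in PU.1−/−. The genotype and the sex of the pups therefore cannot be told apart.

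The epidermis was well represented in both libraries. Of the spinous keratinocyte markers, Krt1 was at 1378 FPKM in WT against 1820 FPKM in PU.1−/−, and Krt10 at 2291 and 2602 FPKM. All 9 barrier genes were expressed in both wounds, from 9.47 to 145.7 FPKM in WT, and from 9.69 to 130.2 FPKM in PU.1−/−. Their FPKM values summed to 421 in WT and 423 in PU.1−/−, or 100.4% of WT. The ratios of PU.1−/− over WT lay between 0.742 for Cyp4f39 and 1.13 for Alox12b, with a median log2 ratio of 0.05 over the 9 genes. The median over the 13237 genes of at least 1 FPKM in 1 or both libraries was −0.004. None of the 9 was 2-fold lower or higher, where 4.45% of those 13237 genes were at least 2-fold lower and 1.71% at least 2-fold higher. None was 1.5-fold lower or higher either, against 8.17% and 5.45% of these genes. A finer limit was set at 25% higher or 20% lower, which is the same fold in either direction. Past it, 1 of the 9 was lower (Cyp4f39) and 0 were higher, against 16.1% and 14% of these genes. In bulk tissue, a different number of keratinocytes and a different amount of RNA per keratinocyte cannot be told apart.

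**Figure D1:**
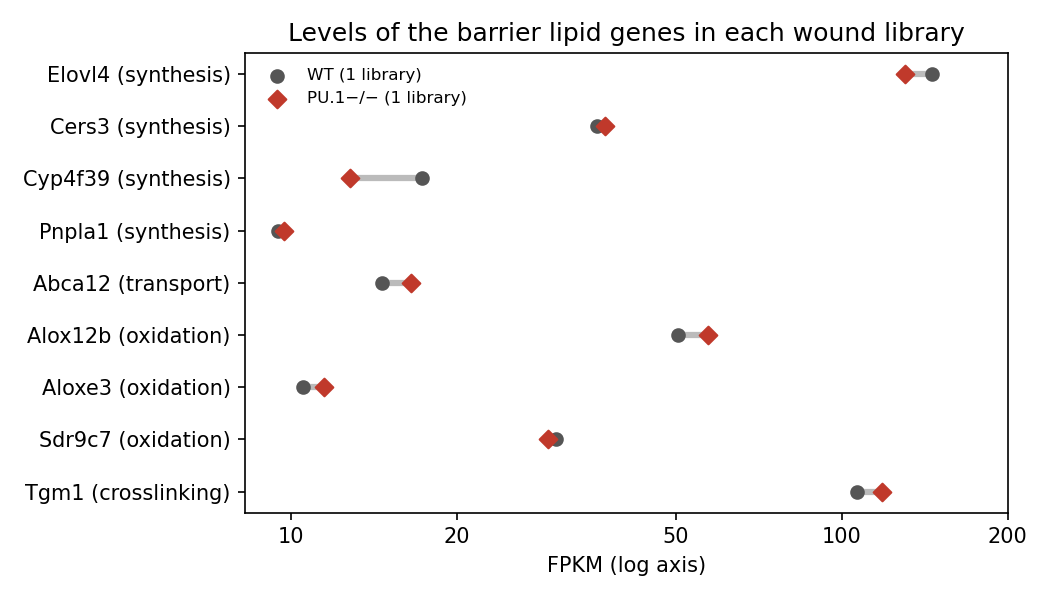
Level of each barrier gene in FPKM (horizontal log axis) in the WT library (grey circle) and the PU.1−/− library (red diamond), 1 library each, with the role of the gene in parentheses. The pairs of points lie close together, from 9.47 and 9.69 FPKM for Pnpla1 to 145.7 and 130.2 FPKM for Elovl4, and the widest gap on the log axis is that of Cyp4f39.

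The acylceramide pathway starts with Elovl4, the elongase that makes ultra-long-chain fatty acids. Elovl4 lies on chromosome 9 of mm10 (GRCm38), minus strand, from 83778692 to 83806305. It was the most abundant of the 9 genes, at 145.7 FPKM in WT against 130.2 FPKM in PU.1−/−. The ratio was 0.894 (interval 0.861 to 0.927), from about 5623 and 5772 estimated reads, so that the level was 10.6% lower in PU.1−/−. Cers3, the ceramide synthase that joins these fatty acids to a sphingoid base, lies on chromosome 7, plus strand, from 66733118 to 66823692. It was at 36.0 FPKM in WT against 37.2 FPKM in PU.1−/−, with a ratio of 1.03 with an interval of 0.965 to 1.11 that holds 1.

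Cyp4f39, a cytochrome P450 that hydroxylates the far end of the fatty acid, was the barrier gene with the largest difference. It lies on chromosome 17, plus strand, from 32452697 to 32493320. Its level was 17.3 FPKM in WT against 12.8 FPKM in PU.1−/−, with a ratio of 0.742 (interval 0.656 to 0.838) from about 575 and 490 estimated reads. Its interval, with an upper bound of 0.838, lies below those of the other 8 genes, whose lowest bound is 0.861 for Elovl4. Pnpla1, the transacylase that joins linoleic acid to the hydroxylated ceramide, is on the same chromosome, plus strand, from 28858286 to 28890308. It was the least abundant of the 9, at 9.47 FPKM in WT against 9.69 FPKM in PU.1−/−, with a ratio of 1.02 (0.913 to 1.147). The 4 synthesis genes together summed to 208 FPKM in WT against 190 FPKM in PU.1−/−, most of which was Elovl4.

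Abca12, the transporter that loads glucosylated ceramides into lamellar bodies, has the longest transcript of the 9, with 9137 nt in 53 exons. It lies on chromosome 1, minus strand, from 71243090 to 71414910. Its level was 14.6 FPKM in WT against 16.5 FPKM in PU.1−/−, with a ratio of 1.13 (1.06 to 1.202). This placed it below Cyp4f39 in the WT library and above it in the PU.1−/− library, with 0.847 and 1.29 times the level of Cyp4f39. That exchange was the only change in the order of the 9 levels between the libraries.

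The oxidation genes act on the linoleic acid of the acylceramide in turn. Alox12b, the 12R-lipoxygenase, lies on chromosome 11, plus strand, from 69157072 to 69169791, and Aloxe3, the lipoxygenase that converts its product to an epoxy alcohol, lies 7956 bases upstream on the same strand, from 69125417 to 69149115. Alox12b was at 50.5 FPKM in WT against 57.3 FPKM in PU.1−/−, with a ratio of 1.13 (1.06 to 1.21). Aloxe3 was at 10.5 and 11.5 FPKM, a ratio of 1.09 with an interval of 0.955 to 1.24 that holds 1. Alox12b was 4.80 times as abundant as Aloxe3 in WT and 4.99 times in PU.1−/−, so the pair was in nearly the same proportion in both wounds. Sdr9c7, the dehydrogenase that oxidizes the epoxy alcohol further, lies on chromosome 10, plus strand, from 127898535 to 127911761. It was at 30.3 FPKM in WT against 29.2 FPKM in PU.1−/−, with a ratio of 0.966 (0.890 to 1.05).

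Tgm1, the membrane-bound transglutaminase that crosslinks the proteins of the cornified envelope, lies on chromosome 14, minus strand, from 55700009 to 55713921. It was the second most abundant of the 9, at 106.4 FPKM in WT against 118.1 FPKM in PU.1−/−, with a ratio of 1.11 (1.06 to 1.16). Antisense transcripts overlap Tgm1 and Pnpla1 in GENCODE. The libraries were stranded, but the strand setting of the counting was not given, so reads of these 2 genes and of their antisense partners may not be separated.

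The order of the levels from high to low was Elovl4, Tgm1, Alox12b, Cers3, Sdr9c7, Cyp4f39, Abca12, Aloxe3 and Pnpla1 in the WT wound. In WT, 1 neighbouring pair of that order did not differ beyond counting error, Aloxe3 and Pnpla1, whose Poisson intervals of 9.53 to 11.6 FPKM and 8.70 to 10.3 FPKM overlap. In PU.1−/− the intervals of the same pair, 10.5 to 12.5 FPKM and 8.97 to 10.5 FPKM, do not overlap but almost touch. Cyp4f39 and Aloxe3, neighbours in the PU.1−/− order, have intervals of 11.7 to 14.0 FPKM and 10.5 to 12.5 FPKM there, which overlap. Grouped by role, the 4 synthesis genes had a median log2 ratio of −0.06 and the 5 genes of transport, oxidation and crosslinking a median of 0.15. Of those 5, Sdr9c7 alone was lower in PU.1−/−. This grouping was described after the values were known and was not tested. For 5 of the 9 genes (Elovl4, Cyp4f39, Abca12, Alox12b and Tgm1) the counting interval did not hold 1, with 3 above and 2 below. The same was true of 51.2% of the 10736 genes of at least 200 estimated reads in all, so that this number is near the background.

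**Figure D2:**
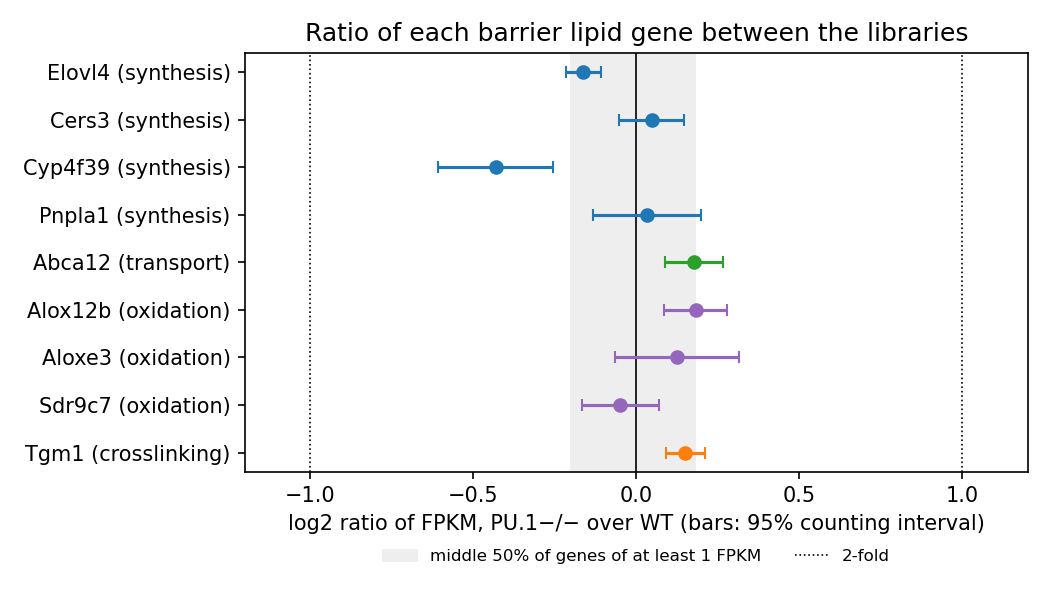
Log2 ratio of FPKM (PU.1−/− over WT) of each barrier gene with its 95% counting interval, coloured by role, beside the 2-fold lines (dotted) and the middle 50% of genes of at least 1 FPKM (grey band, −0.20 to 0.18). All 9 points lie well inside the 2-fold lines, 7 lie in the grey band, Alox12b lies at its upper edge at 0.18 and Cyp4f39 stands apart at −0.43.

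Promoter sequences, taken from RefSeq on GRCm38.p6 as the 250 bases before the transcription start, were found for 8 of the 9 genes. Shown 5′ to 3′ are those of the genes with the highest ratio (Alox12b, plus strand, chr11:69156822-69157071) and the lowest ratio (Cyp4f39, plus strand, chr17:32452473-32452722), and that of Sdr9c7 (plus strand, chr10:127898285-127898534), in which capitals mark a TATAAA.
Alox12b: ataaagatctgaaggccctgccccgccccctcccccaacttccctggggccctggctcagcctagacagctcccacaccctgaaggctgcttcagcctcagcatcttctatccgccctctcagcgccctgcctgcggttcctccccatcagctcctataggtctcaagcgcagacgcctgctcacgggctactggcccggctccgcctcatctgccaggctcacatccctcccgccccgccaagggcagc
Cyp4f39: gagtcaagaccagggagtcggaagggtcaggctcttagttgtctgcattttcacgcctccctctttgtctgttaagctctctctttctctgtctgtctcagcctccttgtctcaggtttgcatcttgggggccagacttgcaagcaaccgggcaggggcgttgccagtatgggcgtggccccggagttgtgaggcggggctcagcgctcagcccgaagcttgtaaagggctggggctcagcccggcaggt
Sdr9c7: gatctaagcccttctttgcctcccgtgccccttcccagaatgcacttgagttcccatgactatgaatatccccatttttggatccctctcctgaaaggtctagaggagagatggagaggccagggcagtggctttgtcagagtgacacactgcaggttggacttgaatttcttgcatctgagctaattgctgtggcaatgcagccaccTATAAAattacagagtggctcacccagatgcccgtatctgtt
For Cyp4f39, Cers3, Pnpla1 and Tgm1 the start sites used lie inside the gene positions given above, so that their windows overlap the gene. The promoters of Alox12b and Cyp4f39 have a GC content of 66% and 59.6%, above the median of 52.4% over 32851 promoters, and that of Sdr9c7 has 49.6%. The TATAAA of Sdr9c7 starts 42 bases before the start site, and 12.4% of all promoters hold this motif on 1 or both strands. No member promoter held the PU.1 motif GAGGAAGT (in 2.44% of all promoters), the AP-1 motif TGANTCA (6.75%) or the GRHL motif AACCGGTT (0.116%), each searched on both strands, and nothing about these factors follows from a window of this length.

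Each barrier gene has paralogues, and the families were compared by their FPKM levels. Among the lipoxygenases, Alox12b was the most abundant, with 48.6% of the summed FPKM of the 7 family genes in WT and 60.1% in PU.1−/−. Alox8, which lies 14093 bases beyond Alox12b on chromosome 11, was at 33.6 FPKM in WT against 23.8 FPKM in PU.1−/−, a log2 ratio of −0.50 against 0.18 for Alox12b. Alox5, the leukotriene-forming enzyme of leukocytes, had the largest difference, from 4.49 FPKM in WT to a value listed at 0. With 3 reads allowed in the PU.1−/− library it was 62.0-fold lower, and the upper bound of its ratio interval was 0.0201.

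Transglutaminases gave the same kind of contrast within a family. Tgm1 made up 39.1% of the family sum in WT and 51.3% in PU.1−/−. F13a1, the coagulation factor chain that macrophages and platelets express, was at 73.9 FPKM in WT and listed at 0 in PU.1−/−. With 3 reads allowed it was 1464-fold lower, and the upper bound of its ratio interval was 0.00084. Tgm2, the broadly expressed tissue transglutaminase, was at 52.6 FPKM in WT against 79.3 FPKM in PU.1−/−, and Tgm3, an epidermal and hair follicle enzyme, at 16.7 and 12.5 FPKM. The shares of Tgm1 therefore moved more than its level did, since the family sum was 272 FPKM in WT against 230 FPKM in PU.1−/−.

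In the other families the share of the barrier gene differed by less than 4 percentage points between the libraries. Cyp4f39 held 64.2% of the CYP4F sum in WT and 66.2% in PU.1−/−. Its relatives rested on few reads. The ratio of Cyp4f13 was 0.689 (interval 0.485 to 0.991), and those of Cyp4f16 (0.781, 0.573 to 1.07) and Cyp4f17 (1.13, 0.685 to 1.89) had intervals that hold 1. How reads shared by such paralogues were assigned was not given. Cyp4f18 was at 1.498 FPKM in WT and listed at 0 in PU.1−/−. With 3 reads allowed it was 11.9-fold lower, and the upper bound of its ratio interval was 0.110. Elovl4 made up 39.5% of the elongases in WT and 40.8% in PU.1−/−, next to Elovl1 with 40.7% and 39.0%. The largest difference among elongases was that of Elovl3, at 15.3 FPKM in WT against 8.99 FPKM in PU.1−/−. Cers3 held 32.9% of the ceramide synthases in WT and 36.8% in PU.1−/−, and Cers2, which makes very-long-chain ceramides in many tissues, 35.6% and 31.0%. The largest difference among ceramide synthases of at least 1 FPKM was a log2 ratio of −0.33, for Cers4. Pnpla1 held only 6.49% and 6.82% of its family, in which Pnpla2, the adipose triglyceride lipase, was at 94.4 and 88.1 FPKM, and Pnpla5 differed most, at 2.48 and 1.35 FPKM. Abca12 held 33.0% and 33.8% of the ABCA genes listed, and Sdr9c7 47.0% and 46.2% of its relatives. Among genes of at least 1 FPKM, the largest differences in those families were log2 ratios of 0.41 for Abca5 and −0.28 for Dhrs9.

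**Figure D3:**
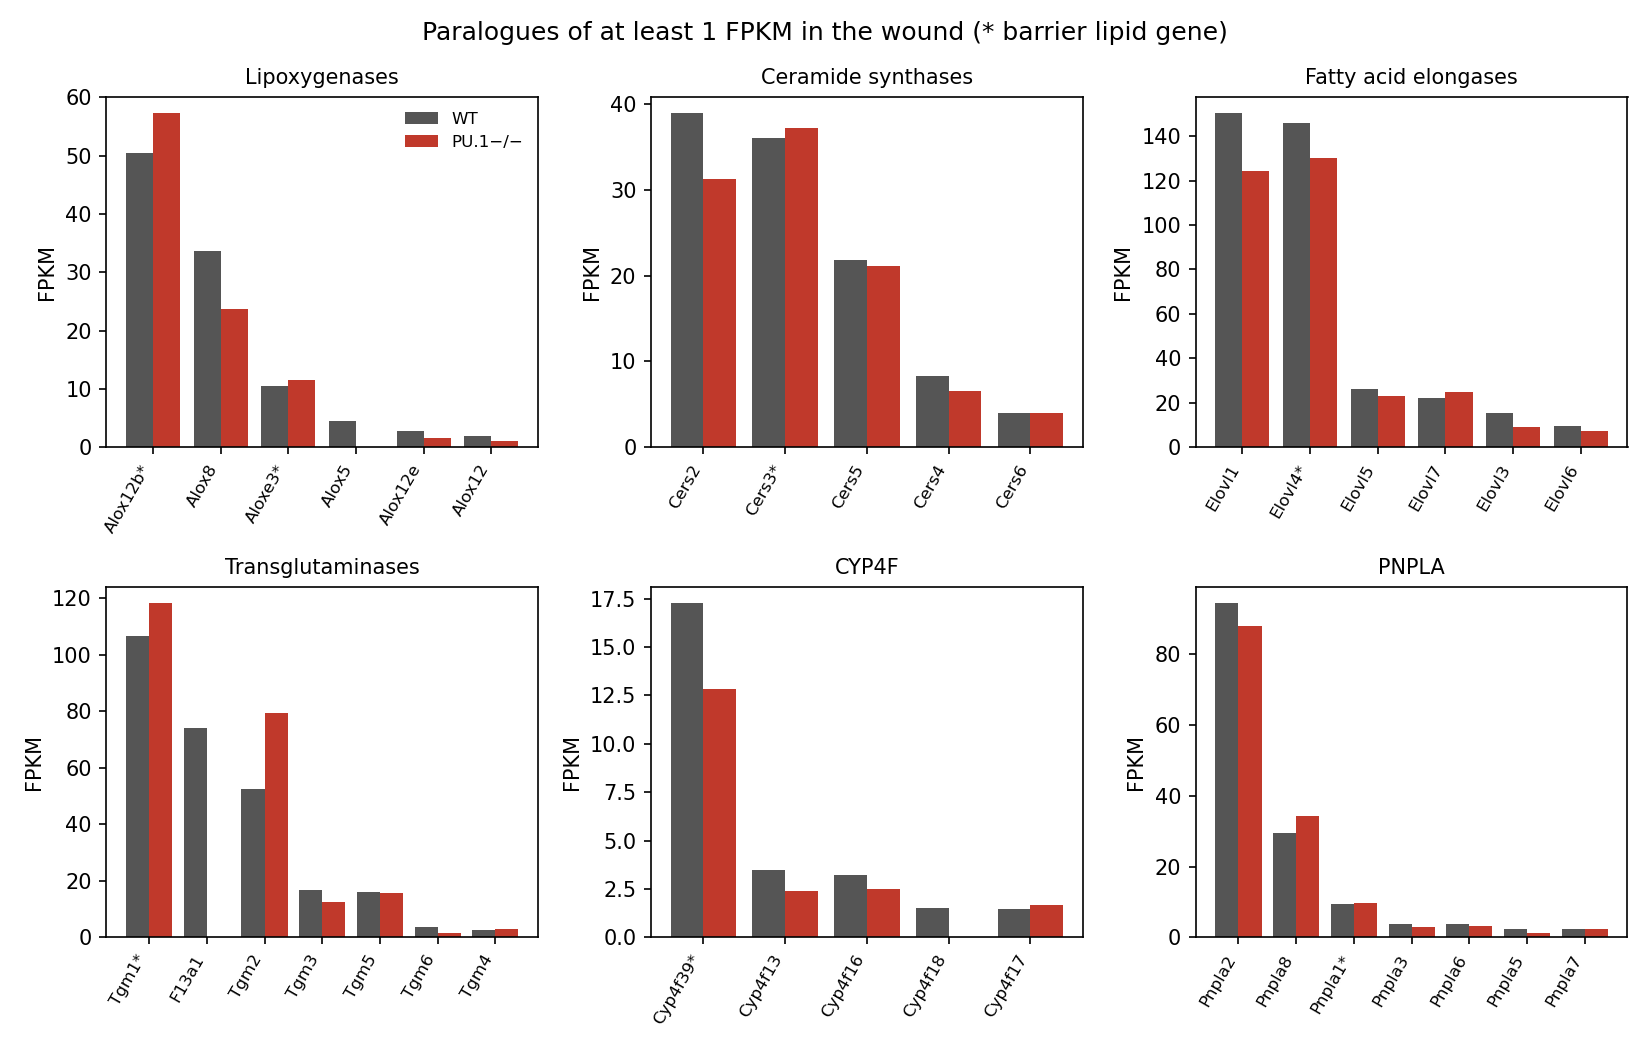
FPKM (vertical axes, from 0) of the paralogues of at least 1 FPKM in 6 gene families in the WT library (grey bars) and the PU.1−/− library (red bars), 1 library each, with barrier genes marked by an asterisk. Bars of most barrier genes are close in height, with the widest relative gap at Cyp4f39 (17.3 and 12.8 FPKM), while those of Alox5, F13a1 and Cyp4f18 are missing in PU.1−/−, where these genes are listed at 0.

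Other genes of the barrier pathway were described by 5 lists. Of their 70 genes, 0 were 2-fold lower or higher, 7 were at least 20% lower and 8 at least 25% higher, and the median log2 ratio was −0.01. Over all genes of at least 1 FPKM, 16.1% were at least 20% lower and 14% at least 25% higher, so that neither number stands above the background. Ceramide backbone synthesis had a median of −0.10 over 16 genes, with 3 at least 20% lower and 1 at least 25% higher. Its most abundant gene was Elovl1, at 150.3 FPKM in WT against 124.4 FPKM in PU.1−/−. Fa2h, the fatty acid 2-hydroxylase, was at 13.6 and 10.03 FPKM, and Degs2, a ceramide desaturase and hydroxylase of the epidermis, at 35.4 and 44.6 FPKM. Delivery and secretion had a median of 0.02 over 10 genes. Its most abundant gene was Rab11a, a vesicle GTPase at 103.9 and 104.4 FPKM. Ugcg, the glucosylceramide synthase that prepares ceramides for Abca12, was at 53.9 and 65.0 FPKM, and Sgms2, a sphingomyelin synthase, had the largest difference of the 70, at 5.63 and 3.12 FPKM.

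Processing of lipids in the stratum corneum had a median log2 ratio of −0.12 over 14 genes, with 1 at least 20% lower and 1 at least 25% higher. Psap, the precursor of the saposins, was its most abundant gene, at 221 FPKM in WT against 189 FPKM in PU.1−/−. Asah1, the acid ceramidase, was at 47.1 and 35.9 FPKM, and the epidermal lipase Lipn at 3.85 and 5.40 FPKM, from about 69 and 111 estimated reads. Many of these genes are lysosomal and not particular to the epidermis. Crosslinking and envelope genes had a median of 0.09 over 14 genes (−0.0099 relative to the keratinocyte lists). Of these 14 genes, 5 were at least 25% higher, a larger share than the 14% of all genes of at least 1 FPKM. At least 20% lower was 1 of them, against 16.1% of all genes. These shares were not tested. Asprv1, a protease of the granular layer, was at 1250 FPKM in WT against 1665 FPKM in PU.1−/−, and Flg2, a filaggrin relative, at 15.3 and 21.4 FPKM. The lowest ratio of that list was that of Tgm3. Regulators of the granular layer had a median of 0.003 over 16 genes, with Hopx as the most abundant on average at 203 and 201 FPKM. Klf4, a factor needed for barrier formation, was at 215 and 172 FPKM, and Rora, a nuclear receptor, at 11.3 and 15.1 FPKM.

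Keratinocyte markers were compared with the barrier genes in the same way. The 30 markers of basal, spinous and wound keratinocytes had a median log2 ratio of 0.10, so that the median of the barrier genes was 0.05 lower than theirs. Spinous markers had a median of 0.05 over 10 genes (−0.043 relative to the keratinocyte lists), next to the 0.05 of the barrier genes. Of them, Lgals7 was at 2458 FPKM in WT against 2662 FPKM in PU.1−/−, Dsc1 at 110.4 and 98.1 FPKM, and Krt1 had the highest ratio, 1.32. Basal markers had a median of 0.17, with Krt14 at 4659 and 5195 FPKM and Krt15 at 74.9 and 114.2 FPKM. Markers of wound keratinocytes had a median of −0.20, with 6 of 10 below 0 and 4 above. Among the wound keratins, Krt16, at 3297 and 3978 FPKM, and Krt6b, at 1921 and 2304 FPKM, were higher in PU.1−/−. Krt6a was nearly level, at 1866 and 1888 FPKM, and Krt17 was lower, at 973 and 901 FPKM. Stfa1, a protease inhibitor also known from myeloid cells, was at 4794 and 3370 FPKM, the small proline-rich protein gene Sprr2h at 193 and 129 FPKM, and the cytokine Il24 at 3.43 and 5.35 FPKM, from about 45 and 81 estimated reads.

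**Figure D4:**
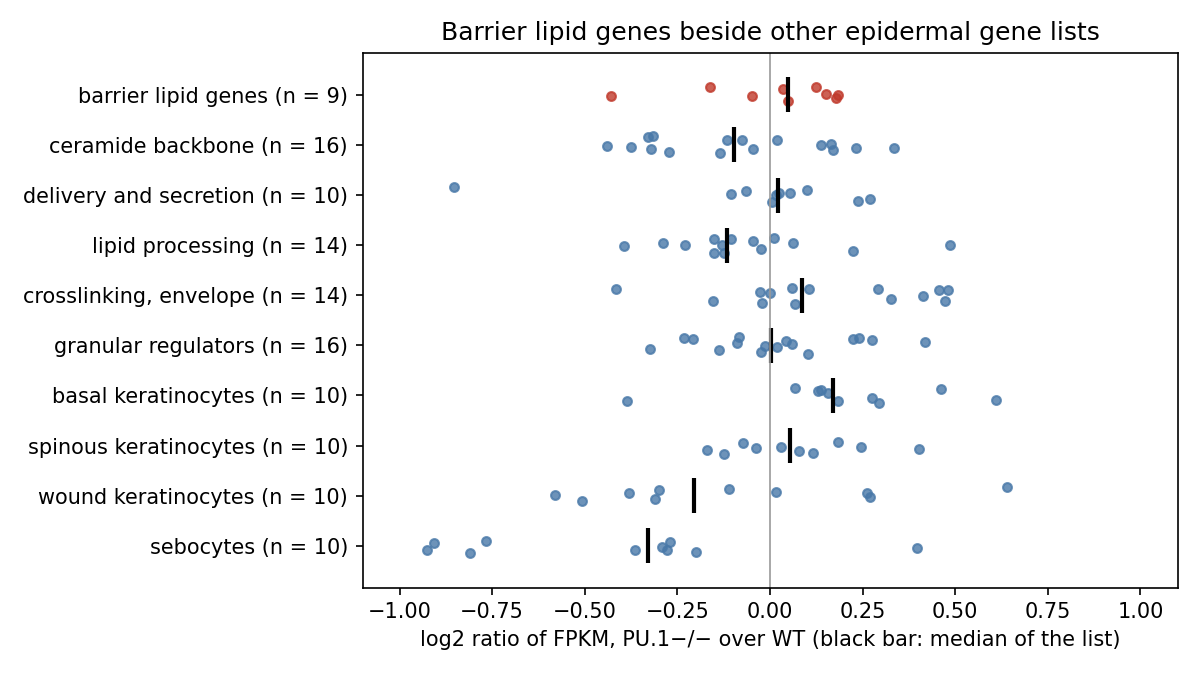
Log2 ratio of FPKM (PU.1−/− over WT, horizontal axis) of each gene in the barrier list (red points) and in 9 other lists (blue points), with the median of each list as a black bar. The barrier genes have a median of 0.05, the spinous keratinocyte markers 0.05, the wound keratinocyte markers −0.20 and the sebocyte markers −0.33.

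The lists of leukocyte markers had far lower median ratios than the barrier genes, though not every marker did. All 10 macrophage markers were at least 2-fold lower in PU.1−/−, with a median log2 ratio of −7.18, and their FPKM sum was 1.43% of that in WT. The mast cell markers had a median of −5.77 (9 of 10 lower by 2-fold), a range of −9.65 to −0.49 and an FPKM sum of 2.07% of that in WT. The neutrophil markers had a median of −2.58 (8 of 10), a range of −11.6 to −0.65 and an FPKM sum of 29.2% of that in WT. Fibroblast markers had a median of 0.22, a range of −0.45 to 0.54 and 0 of 10 past 2-fold, and skeletal muscle markers a median of 0.67 with 2 of 10 higher by 2-fold and an FPKM sum of 167% of that in WT. The part of these differences in the small ones of the barrier genes was not tested.

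Among 127 listed genes that reached 10 FPKM in WT and in PU.1−/−, barrier genes left out, those with a log2 ratio nearest to the median of the barrier genes were Grhl1, Cldn1, Cdsn, Pdgfrb and Bdh1, at 0.03 to 0.06. This likeness is over 2 libraries only. Grhl1 is a transcription factor of the epidermis, Cldn1 a tight junction protein of the granular layer and Cdsn the corneodesmosome protein corneodesmosin, while Pdgfrb marks mesenchymal cells.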

How the data were processed

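Stranded mRNA libraries were read single-end, bases were called with CASAVA and reads were mapped to mm10 by the authors, who deposited FPKM values made with Cuffnorm. The submitters' processing notes list TopHat2 2.1.1, Bowtie2 2.2.8, SAMtools 0.1.18 and Cuffdiff 2.2.1 without their roles. The annotation is not given in the sources used here. FPKM from 1 library per genotype allows no test across animals, so none was made.

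Ratios of the 2 libraries (PU.1−/− over WT) were taken after raising values below 0.1 FPKM to 0.1. Among genes below 2 FPKM in WT, 459 had, within 0.001, the same value in WT divided by that in PU.1−/− (1.149), the mark of equal read numbers. The depth was set by the step of 1 read among 173 genes with 1 GENCODE transcript of at least 1000 nt that were below 1 FPKM in WT and listed at 0 in PU.1−/−, with transcript length less an assumed fragment of 200 nt. Of their values, 75.1% lay within 0.1 reads of a whole number. The step was itself fitted on 76 of these genes, so this share is not an independent check. Reads per gene were then estimated from the longest transcript linked to RefSeq (89.1% of symbols), so that an interval is too narrow where this transcript is longer than the authors'. RefSeq on GRCm38 gave the gene positions, and GENCODE the strands and exon numbers.

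Lists covered the barrier pathway, keratinocyte layers, sebocytes, macrophages, neutrophils, mast cells, fibroblasts, skeletal muscle, adipocytes and paralogue families. Named were the 9 barrier genes, Spi1, of each pathway and keratinocyte list the most abundant gene and the largest difference in each direction among genes of at least 5 FPKM, of each family the most abundant gene and the largest difference among genes of at least 1 FPKM, and the 5 listed genes nearest to the barrier genes' median. Krt10, Krt16, Krt6b, Krt6a, Krt17, Alox8, Tgm2, Cyp4f13, Cyp4f16, Cyp4f17, Cers2, Elovl1 as a paralogue, the sex-linked genes and the sebocyte and adipocyte genes were named outside this rule, after their values were seen. 1 gene that the rule names is not reported here. The members and lists were chosen with earlier results of these data known. Cert1 and Epb42 were matched through older symbols, and Sts and Flg were not analysed here. The functions were tested on simulated libraries. The software was Python 3.11.15 with scipy 1.17.1, numpy 2.4.6, pandas 2.3.3 and, for plots, matplotlib 3.10.9.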

Additional observations from a re-analysis of the deposited data

How the results depend on the processing

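A total of 123 of 134 recomputed values were classed as unchanged. A ratio or median was so classed if it moved by no more than the distance from centre to end of its log2 counting interval, for lists the median distance. A count was so classed if it was equal to the reported one or, with both above 0, within 1.5-fold of it. Some values could not move: ratios under the shortest linked transcript, and the difference from keratinocyte markers under rescaling. Nor could medians of lists whose genes all passed the filter at 5 FPKM, namely the barrier, ceramide backbone, crosslinking and 3 keratinocyte lists. Every count of barrier genes past 2-fold, 1.5-fold or the finer limit of 25% higher or 20% lower stayed as reported. The alternatives were a pseudocount of 0.1 or 1 FPKM, libraries rescaled to the same FPKM sum (0.05 added to each log2 ratio) or to a median of 0 over genes of at least 10 FPKM (0.01 added), ratios taken relative to the keratinocyte lists (0.10 subtracted), a filter at 5 FPKM and, chosen after seeing the data, reads from the shortest linked transcript. With the same FPKM sum the medians of the spinous and wound keratinocyte lists were 0.10 and −0.16. Relative to the keratinocyte lists, the medians of crosslinking and envelope genes (−0.0099), spinous markers (−0.043), granular regulators (−0.094), delivery and secretion genes (−0.076) and the barrier genes (−0.048) changed sign, as did Cers3 (−0.048) and Pnpla1 (−0.062), while basal markers were at 0.073 and wound markers at −0.30. Granular regulators also changed sign with the filter at 5 FPKM (−0.013). On the keratinocyte scale, Alox12b (0.09), Abca12 (0.08) and Tgm1 (0.05) stayed above 0 and Elovl4 was at −0.26. The shifts on that scale follow from the subtraction itself. The median of the barrier genes ranged from −0.05 to 0.09 over all settings, so that its sign depends on the scaling, and Cyp4f39 was lowest in each. No paired analysis was possible because each genotype has 1 library, and none could be left out. Estimated reads per barrier gene and library ranged from about 409 to 5772. The counting interval of the ratio was 0.861 to 0.927 for Elovl4 and 0.955 to 1.24 for Aloxe3. For 4 barrier genes (Aloxe3, Cers3, Pnpla1 and Sdr9c7) it held 1, so counting error was not small against their differences. The spread between pups is unknown.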

Other observations

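Markers of sebocytes, the lipid-secreting cells of the sebaceous gland, were described in the same way, with no test between lists. Their median log2 ratio was −0.33 over 10 genes, with 5 of 10 at least 20% lower and 1 at least 25% higher, against 16.1% and 14% of all genes of at least 1 FPKM. The genes named here were chosen after their values were seen. Awat2, a wax synthase, was at 3.23 FPKM in WT against 1.70 FPKM in PU.1−/−, Soat1, a cholesterol esterifying enzyme, at 6.62 and 3.53 FPKM, and Far2, a fatty acyl reductase, at 7.27 and 4.15 FPKM. Cidea, a lipid droplet protein, was at 9.01 and 11.9 FPKM. Adipocyte markers had a median of −0.76 over 10 genes, of which 4 were at least 2-fold lower, among them Cfd, the adipocyte protease adipsin, at 504 FPKM in WT against 162 FPKM in PU.1−/−. Fabp4 and Lpl, at 3408 and 3037 FPKM and at 103.4 and 101.3 FPKM, differed less. Some listed genes of both cell types are also expressed by other cells, macrophages included, and their part in these values was not tested.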
